A study of Mus musculus with 6 samples.

Results

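The genes described here are the long-chain acyl-CoA synthetases and fatty acid transport proteins of brown adipose tissue. They were chosen by symbol from a list drawn up with earlier results of these data known, and 9 of the 24062 symbols in the count table belong to the set: Acsl1, Acsl3, Acsl4, Acsl5 and Acsl6, the transport proteins Slc27a1, Slc27a2 and Slc27a4, and Acss1, the mitochondrial acetyl-CoA synthetase. RNA-seq libraries were made from the brown fat of male C57BL/6 mice, 12 weeks old, that were labelled either heterozygous or knockout for FAM195A, which the series describes as an RNA-binding protein needed for heat production in the cold. There were 3 mice, and so 3 libraries, of each genotype, and the reference group also carried 1 altered Fam195a allele, so the set contains no wild-type tissue. How the allele was made, whether it acts in all tissues and the temperature at which the mice were kept could not be read from the sources used here.

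A fatty acid cannot be burned, stored or built into a membrane until it has been joined to coenzyme A. Acyl-CoA synthetases do this in a reaction that consumes ATP and passes through an acyl-adenylate, and the product cannot easily leave the cell. ACSL enzymes act on long chains and differ in location and preferred substrate, while the fatty acid transport proteins encoded by Slc27a genes combine fatty acid uptake with synthetase activity toward long and very long chains. ACSS1 performs the same chemistry on acetate inside mitochondria. In brown adipocytes activated fatty acids feed the mitochondrial oxidation that supports uncoupled respiration, and mouse studies have tied ACSL1 and the SLC27A1 protein to cold-induced heat production.

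The shared chemistry is visible in the coding sequences. Every member holds exactly 1 match to the AMP-binding signature, a stretch of 12 residues in the nucleotide-binding part of the enzyme, and the 36 coding bases of each match are shown because this is the feature that unites the family. They were read from the longest open reading frame among the protein-coding GENCODE M21 transcripts of each gene and are written 5′ to 3′. Capitals mark the codons of the 7 residue positions at which all 9 proteins are identical.

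Acsl1: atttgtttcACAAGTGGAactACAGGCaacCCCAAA
Acsl3: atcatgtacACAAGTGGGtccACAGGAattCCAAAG
Acsl4: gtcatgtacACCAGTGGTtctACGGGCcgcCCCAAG
Acsl5: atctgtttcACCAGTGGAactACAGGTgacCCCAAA
Acsl6: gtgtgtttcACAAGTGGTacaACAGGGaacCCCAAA
Slc27a1: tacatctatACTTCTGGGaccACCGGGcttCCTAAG
Slc27a2: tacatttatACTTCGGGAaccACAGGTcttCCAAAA
Slc27a4: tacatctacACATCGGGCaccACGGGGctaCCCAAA
Acss1: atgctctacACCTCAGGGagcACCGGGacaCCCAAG

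Over these 36 bases Acsl5 matched Acsl1 at 32 positions and Acsl6 at 31, whereas Acsl3 and Acsl4 each matched it at 23 and the remaining members at 16 to 19. The whole predicted proteins fell into the same subgroups. Acsl1, Acsl5 and Acsl6 were 58.9% to 64.7% identical to one another, Acsl3 and Acsl4 were 65.7% identical, and identity between those subgroups was only 31.8% to 34.4%. Slc27a1 and Slc27a4 were 60.5% identical, Slc27a2 stood further off at 40.3% to 41.3%, and Acss1 shared 20.6% to 26.7% with any other member. The open reading frames were 683 to 722 residues long in the Acsl genes, 620 to 646 in the Slc27a genes and 682 in Acss1.

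The genes lie apart in the genome (GRCm38): Acsl1 at chr8:46471037-46536051, plus strand; Acsl3 at chr1:78657825-78707743, plus strand; Acsl4 at chrX:142317993-142390535, minus strand. Acsl5 lies at chr19:55251938-55297720 and Acsl6 at chr11:54303798-54364756, both on the plus strand. Slc27a1 is at chr8:71568882-71587302, Slc27a2 at chr2:126552407-126588243 and Slc27a4 at chr2:29802634-29817522, all on the plus strand, and Acss1 is at chr2:150618105-150668500 on the minus strand. Counts were per whole gene. Exons of Acsl5 share 404 bases with Zdhhc6 on the opposite strand, which is 8.31% of the exon bases of Acsl5, and exon overlaps with other annotated genes came to 1039 bases for Acsl1, 419 for Slc27a2, 244 for Acsl3, 202 for Acsl6 and 113 for Acss1. The overlap of Acsl3 is with a gene on the same strand, which a strand setting would not separate, and the others are with genes on the opposite strand. The sources used here do not say whether the counting used strand, so the values of these genes are uncertain by the reads of their neighbours. Zdhhc6 itself stood at 43.7 ± 0.705 CPM in the heterozygous-labelled and 48.2 ± 4.73 CPM in the knockout-labelled libraries (SD, n = 3 each).

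Reads assigned to genes numbered 18781401, 19825537 and 20471963 under the heterozygous label and 22418031, 25084627 and 23373773 under the knockout label, with no overlap. They made up 43.9% to 48.4% of all reads in the heterozygous-labelled and 51.0% to 58.3% in the knockout-labelled libraries. Reads with several alignments made up 21.8% to 23.9% against 17.6% to 19.8%. Reads that the counting assigned to no feature made up 27.5% to 29.9% against 21.5% to 26.6%. Depth and these shares therefore separate the groups as the labels do, beside every difference given below, and their part in the differences cannot be told apart from that of the label. Levels are given in CPM, reads of a gene scaled to a common total of assigned reads, after TMM scaling of the library sizes. Fam195a did not follow the labels, at 69.0, 70.5 and 103 CPM in the heterozygous-labelled and 50.5, 82.0 and 81.3 CPM in the knockout-labelled libraries (log2 fold change -0.18, SE 0.24, edgeR adjusted p = 0.896), so groups are named here by their labels. Heterozygous libraries 1 and 2 and knockout libraries 1 and 2 have titles beginning with RF, and library 3 of each group a title beginning with RE. The labels do not say what the prefix means, and values within each prefix are given below. Markers of adipocytes were present in every library, with summed levels that overlapped between groups. The sums were 8546 to 13270 against 7853 to 14230 CPM for 12 brown adipocyte markers. For 10 general adipocyte markers they were 17490 to 23350 against 17370 to 24800 CPM. Of the brown adipocyte markers 1, Elovl3, was called by edgeR and rose. In that list 4 log2 fold changes were above 0 and 8 below, from -0.70 to 4.18 (Bmp8b, edgeR adjusted p = 0.0654), with a median of -0.19. Ucp1, the uncoupling protein of brown fat, was at 4898, 5290 and 2963 against 4390, 5693 and 1647 CPM. Sums of endothelial (8 genes), macrophage (7) and fibroblast (8) markers also overlapped. All 26 skeletal muscle markers were detected in every library, and their summed level was 11290, 26750 and 34100 CPM in the heterozygous-labelled against 7136, 4166 and 3888 CPM in the knockout-labelled libraries, with no overlap. In bulk tissue fewer cells of a type and less RNA per cell cannot be told apart.

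None of the 9 members passed the test between genotypes. All 9 cleared the filter on low counts, and with edgeR's quasi-likelihood test and Benjamini-Hochberg adjustment over 13300 genes at 0.05, 0 were called, beside 0.586% of all genes tested. At an unadjusted p under 0.05 there were 4 members, Acsl1, Acsl5, Acsl6 and Acss1, where 12.1% of all genes reached that level. In the same 4 genes the libraries of the groups did not overlap, which was so for 18% of all genes. Acsl1, Acsl6 and Acss1 were lower in every knockout-labelled library than in any heterozygous-labelled one, and Acsl5 was higher. The median log2 fold change of the members was -0.10, against 0.02 for all genes tested. With other methods Acsl6 and Acss1 were called: both with DESeq2, which called 5.26% of its genes, and both with the title prefix as a covariate, where 2.34% of genes were called.

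**Figure D1:**
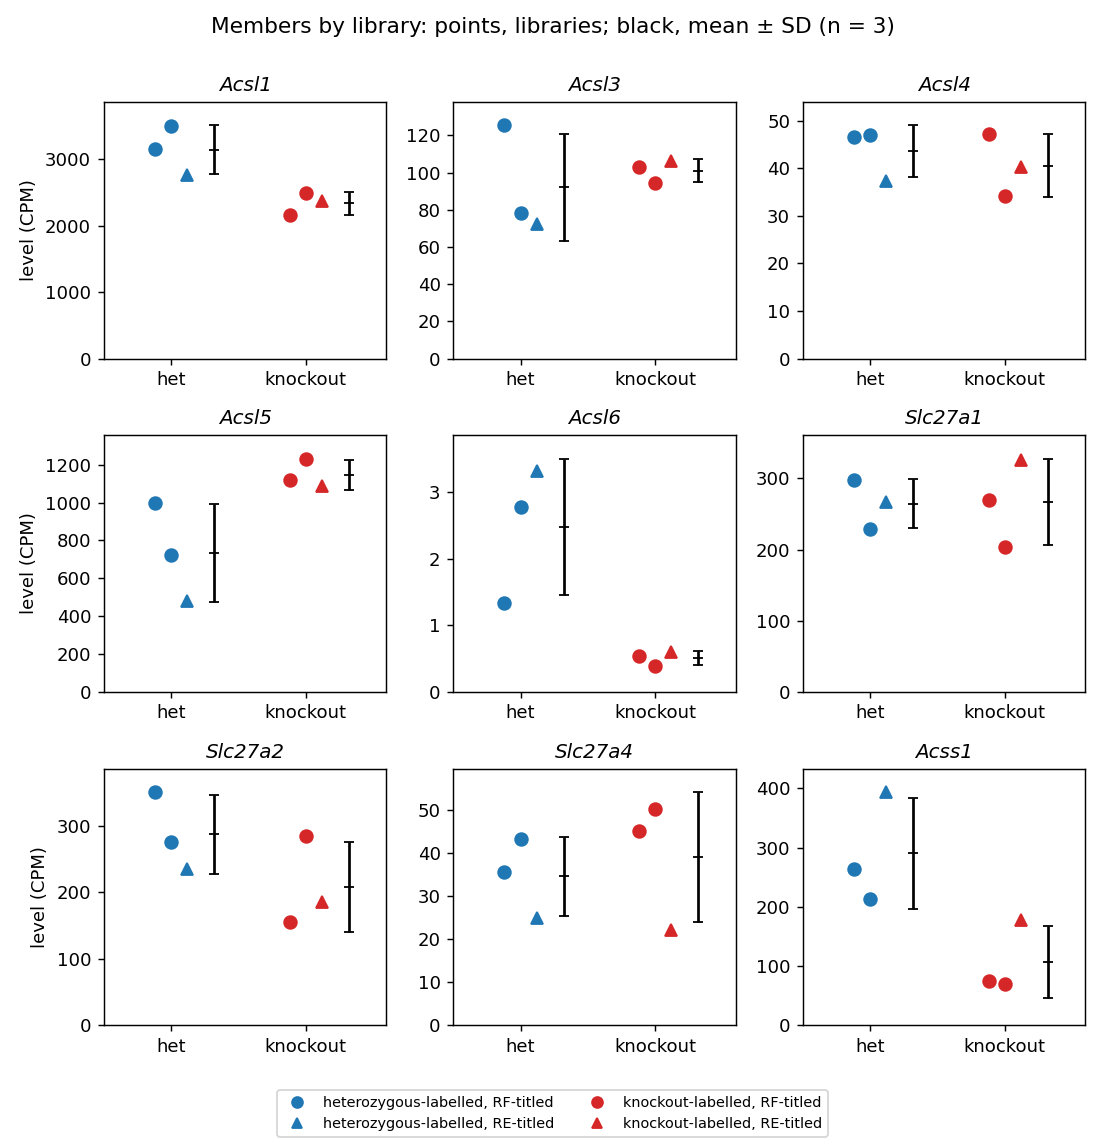
Level of each member in CPM (vertical axis, from 0) in the 3 heterozygous-labelled (blue) and 3 knockout-labelled (red) libraries, with circles for RF and triangles for RE titles and black bars for mean ± SD. Acsl1, Acsl6 and Acss1 have all red points below all blue ones, Acsl5 has them above, and the other 5 genes overlap.

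**Figure D2:**
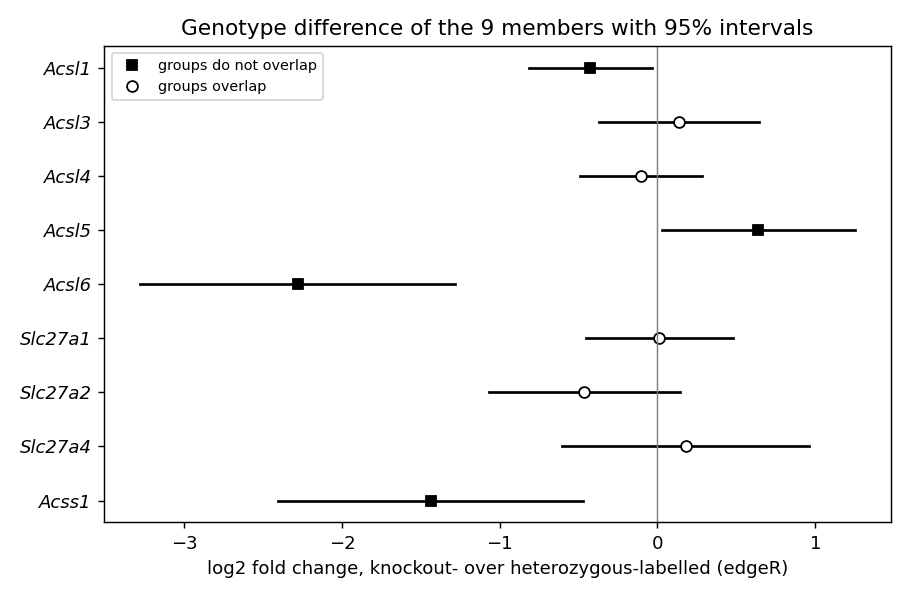
Log2 fold change, knockout- over heterozygous-labelled, of each member with its 95% interval from edgeR. Intervals of 4 genes, drawn with filled squares, leave out 0: Acsl6 at -2.28, Acss1 at -1.44, Acsl1 at -0.43 and Acsl5 at 0.64.

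Acsl1 and Acsl5, the most abundant members, stood on opposite sides of 0. Acsl1 encodes the main synthetase of fat and muscle, found at mitochondria, the endoplasmic reticulum and lipid droplets. It stood at 3160, 3497 and 2760 CPM in the 3 heterozygous-labelled libraries, against 2153, 2494 and 2366 CPM with the knockout label. The highest knockout-labelled library was thus below the lowest heterozygous-labelled one, by a narrow margin. The means were 3139 ± 369 and 2337 ± 173 CPM (SD, n = 3 each), so that the knockout-labelled level was 74.5% of the heterozygous-labelled one (95% interval 56.9 to 97.5%). The log2 fold change of -0.43 (SE 0.17) did not pass (adjusted p = 0.353), and it was -0.52 among RF libraries and -0.22 in the RE pair.

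Acsl5 encodes an isoform of mitochondria and the endoplasmic reticulum that is prominent in intestine and liver. Its level was 1000, 723 and 481 CPM in the heterozygous-labelled and 1117, 1232 and 1086 CPM in the knockout-labelled libraries. Heterozygous library 1 came close to the knockout-labelled range and library 3, the RE library, was far below it, while the knockout-labelled libraries lay close together. Means were 735 ± 260 and 1145 ± 77.2 CPM (SD, n = 3 each), or 156% of the heterozygous-labelled level with a 95% interval of 102 to 238%. The log2 fold change of 0.64 (SE 0.26) did not pass (edgeR adjusted p = 0.379). It was 0.45 among RF libraries and 1.17 in the RE pair.

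Because the pair stood on opposite sides, the ratio of their reads was computed within each library, where library scaling cancels. The ratio was chosen after the values were seen. On the log2 scale Acsl1 over Acsl5 was 1.66, 2.27 and 2.52 under the heterozygous label and 0.95, 1.02 and 1.12 under the knockout label. Every knockout-labelled library was lower, which follows from Acsl1 being lower and Acsl5 higher in each of them. All 3 lay within a narrow band. The difference was -1.12, a 2.18-fold lower ratio, with -0.98 among RF libraries and -1.40 in the RE pair. A two-sided exact permutation test gave p = 0.1, the smallest that 3 libraries against 3 allow. That p was fixed by the separation of both genes and adds nothing to it. With any single library left out the difference lay between -1.37 and -0.94. Among heterozygous-labelled libraries the ratio rose in the order of the muscle marker sums, and among knockout-labelled libraries in the reverse order. In both groups it rose in the order of the nerve and glia marker sums given below. The Acsl1 shares given below were ordered in the same way as the ratio. The parts of muscle RNA and of nerve and glia RNA in the ratio and the shares were not tested.

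The same contrast was seen as a share of the summed level of the 5 Acsl genes, each scaled by length as CPM per kilobase of all annotated exons. Acsl1 made up 55.4%, 65.5% and 68.2% of the sum under the heterozygous label and 43.9%, 45.8% and 46.9% under the knockout label. Acsl5 made up 37.8%, 29.2% and 25.6% and then 49.1%, 48.8% and 46.4%. The mean Acsl1 share was therefore 17.5 percentage points lower and the mean Acsl5 share 17.3 points higher in the knockout-labelled group, with no overlap for either gene. Exact permutation tests gave p = 0.1 for each, and 0.167 after adjustment over the 5 genes. Because Acsl1 and Acsl5 made up most of the sum, a lower share of one went with a higher share of the other. Their shares restate the ratio and are not separate results. Acsl3 (4.37% and 4.76%) and Acsl4 (1.69% and 1.54%) held small shares in both groups, and Acsl6 held 0.0555% and 0.0106%. The summed level itself was 480 ± 83.2 CPM per kilobase in the heterozygous-labelled and 489 ± 27.0 in the knockout-labelled group (SD, n = 3 each; exact permutation p = 0.9).

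These shares depend on the gene length used. All exons of Acsl1 add up to 10483 bases, because the annotation includes transcripts with retained introns, while its longest protein-coding transcript has 3897 bases; for Acsl5 the figures are 4864 and 4243. Scaled by the coding transcript, a choice made after the data were seen, Acsl1 held 79.98% ± 4.76 and 66.4% ± 1.36 of the sum and Acsl5 16.9% ± 4.31 and 29.9% ± 1.25 (SD, n = 3 each). The Acsl1 share was then 13.6 points lower in the knockout-labelled group, again with no overlap. On that scale the summed Acsl level was 1011 ± 141 and 903 ± 55.3 CPM per kilobase (exact permutation p = 0.4).

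**Figure D3:**
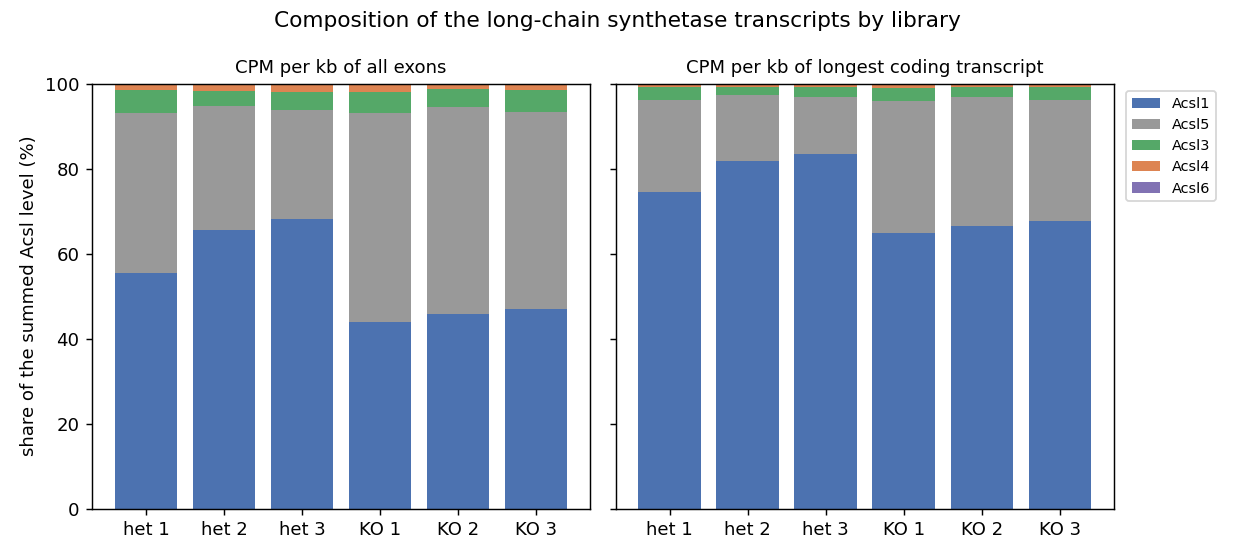
Share of each gene in the summed Acsl level (vertical axis, %) by library, scaled by all exons on the left and by the longest coding transcript on the right; het and KO are the heterozygous- and knockout-labelled libraries. In both panels Acsl1 is the smaller, and Acsl5 the larger, in each KO bar than in any het bar.

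Acsl6 differed most in proportion and was the scarcest member. ACSL6 is best known from the brain, where it handles long polyunsaturated fatty acids, and it is also made in skeletal muscle. Its reads numbered 25, 55 and 72 in the heterozygous-labelled and 12, 10 and 13 in the knockout-labelled libraries, that is 1.33, 2.77 and 3.32 against 0.538, 0.390 and 0.600 CPM. All knockout-labelled libraries were lower, and knockout library 2 was the only one under the 0.466 CPM that the filter asks for. The log2 fold change was -2.28 (SE 0.43, 95% interval -3.28 to -1.28), a 4.86-fold lower level, which missed the threshold at edgeR adjusted p = 0.072. It was -2.15 among RF libraries. In the RE pair the log2 ratio of CPM was -2.47, or -1.80 with the 0.5 CPM that was added to each level for the RE ratios of all members and that weighs on a level this low. Acsl6 was called with DESeq2 (adjusted p = 0.000361), with the prefix as a covariate (0.0282), at an adjusted p under 0.1, which 3.76% of genes reached, and without heterozygous library 1 (-2.57, adjusted p = 0.0159; 2.95% of genes called). Without any other single library the edgeR adjusted p was 0.125 to 0.268. Acsl6 was not called with limma-voom and sample quality weights (-2.09, adjusted p = 0.113) or in the RF libraries alone (edgeR adjusted p = 0.159).

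Muscle markers differed in the same direction as Acsl6. All 26 had a log2 fold change below 0, from -2.97 to -1.62 with a median of -2.24, each with an unadjusted p under 0.05 and none called. Among heterozygous-labelled libraries, the order of Acsl6 levels from library 1 to 2 to 3 was the order of the muscle sums, and among knockout-labelled libraries it was not. The part of muscle RNA in the Acsl6 value was not tested. Nerve and glia markers, 5 tested of 8 listed, overlapped between groups. Their sums were 102, 144 and 184 CPM in the heterozygous-labelled and 133, 139 and 176 CPM in the knockout-labelled libraries. Among heterozygous-labelled libraries this was also the order of Acsl6 levels, and among knockout-labelled libraries it was not. The part of nerve and glia RNA in the Acsl6 value was not tested either. Among 11525 genes whose mean log2 CPM reached 1, the profiles most like Acsl6 over the 6 libraries were Fgf13, a binding partner of sodium channels (Pearson r = 0.995), Prr33 (0.994), Egf, the epidermal growth factor precursor (0.993), Klhl33 (0.990) and Tmod1, which caps actin filaments (0.988). These r values describe 6 libraries that fall into the same groups, and the log2 fold changes of these 5 genes lay between -2.28 and -1.92, with none called.

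Acss1 was the member with the next largest difference. The enzyme lets mitochondria use acetate as a fuel. Heterozygous-labelled libraries held 264, 213 and 394 CPM of it, and those with the knockout label 74.0, 70.1 and 177 CPM. The RE library was the highest in each group, and no knockout-labelled library reached the heterozygous-labelled range. Means were 290 ± 93.6 and 107 ± 60.9 CPM (SD, n = 3 each), and the log2 fold change was -1.44 (SE 0.41, 95% interval -2.40 to -0.47), so that the knockout-labelled level was 36.9% of the other (18.9 to 72.1%). The edgeR adjusted p was 0.175. Within prefixes the log2 difference was -1.73 in RF libraries and -1.15 in the RE pair.

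Acss1 was called by several other methods. It passed in the RF libraries alone (adjusted p = 0.0148; 0.993% of genes called there), with the prefix as a covariate (-1.53, adjusted p = 0.00659), with DESeq2 (-1.43, adjusted p = 0.00683), with limma-voom and sample quality weights (-1.65, adjusted p = 0.0351; 1.46% of genes called) and without knockout library 3 (-2.02, edgeR adjusted p = 0.0399; 0.827% of genes called). Without any other single library the edgeR adjusted p was 0.243 to 0.441. The order of Acss1 levels did not fully follow the muscle sums in either group. Heterozygous library 3 had the highest muscle sum and the most Acss1, but library 2 had more muscle signal than library 1 and less Acss1. Among knockout-labelled libraries, library 3 had the lowest muscle sum and the most Acss1. Between groups, both the muscle sums and Acss1 were lower under the knockout label. The part of muscle RNA in the difference between groups was not tested.

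**Figure D4:**
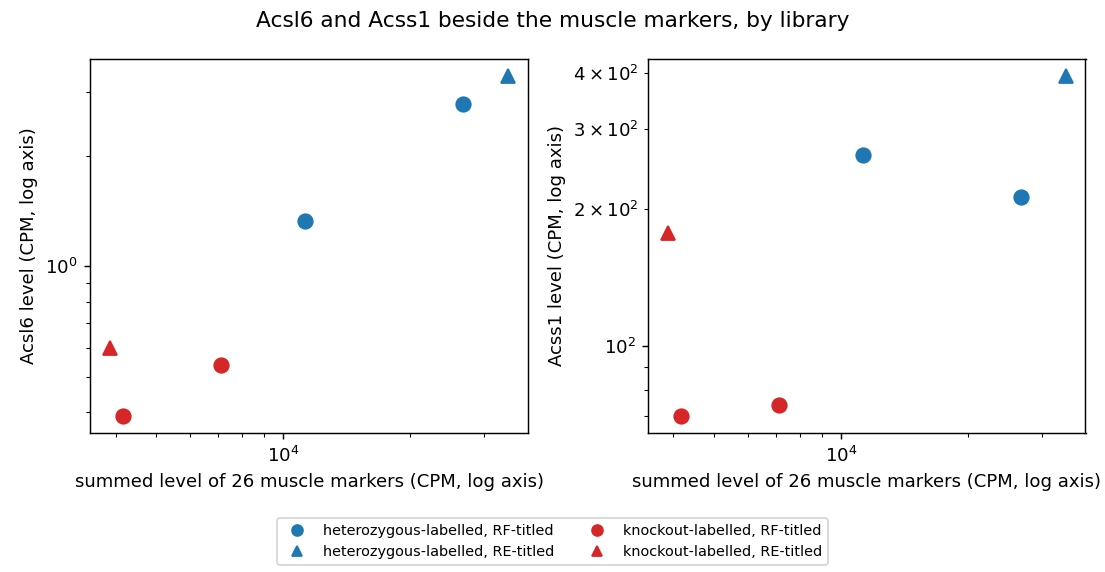
Level of Acsl6 (left) and Acss1 (right) against the summed level of 26 muscle markers in each of 6 libraries, both axes in CPM on log scales; colours give the labelled genotype and shapes the title prefix. Acsl6 is higher where the muscle sum is higher in the blue points, while the blue and red Acss1 points do not line up with the muscle sum within their group.

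Acss2, the cytosolic and nuclear counterpart of Acss1, was at 1069, 977 and 234 CPM in the heterozygous-labelled and 1883, 1400 and 1030 CPM in the knockout-labelled libraries. The groups overlapped narrowly, and heterozygous library 3 stood far below the rest (log2 fold change 0.92, SE 0.53, edgeR adjusted p = 0.623). The log2 ratio of Acss1 to Acss2 reads, also chosen after the values were seen, was -2.02, -2.20 and 0.75 against -4.67, -4.32 and -2.54. All knockout-labelled libraries were lower, and heterozygous library 3 was the only one with more reads of Acss1 than of Acss2. The difference was -2.69, a 6.44-fold lower ratio, with -2.38 among RF libraries and -3.29 in the RE pair. The exact permutation p was 0.1, the smallest that 3 libraries against 3 allow. Since the ratio was chosen on values already seen, that p adds nothing to them. With single libraries left out the difference ranged from -3.34 without knockout library 3 to -1.73 without heterozygous library 3.

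**Figure D5:**
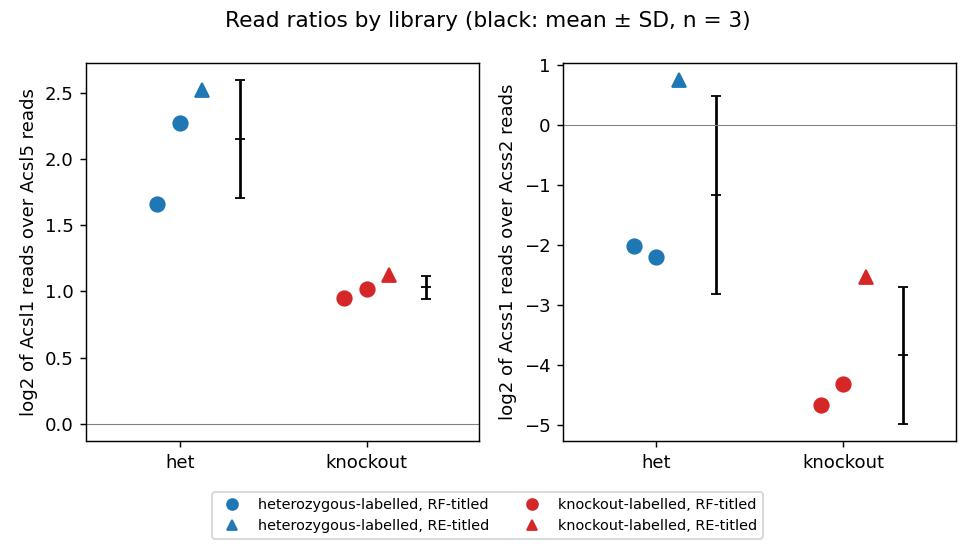
Log2 ratio of reads within each library, Acsl1 over Acsl5 on the left and Acss1 over Acss2 on the right, for heterozygous-labelled (blue) and knockout-labelled (red) libraries, with black bars for mean ± SD. In both panels every red point is below every blue point, and the heterozygous RE library (blue triangle) is the highest point.

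Acsl3 and Acsl4, the pair whose predicted proteins were 65.7% identical, overlapped between groups. Acsl3, a synthetase of the endoplasmic reticulum and of growing lipid droplets, was at 125, 78.2 and 72.5 against 103, 94.5 and 106 CPM. Heterozygous library 1 was the highest of all 6 and the other heterozygous-labelled libraries were the lowest (log2 fold change 0.14, 95% interval -0.37 to 0.64, edgeR adjusted p = 0.917). Acsl4, which favours arachidonic acid, was at 46.5, 46.9 and 37.4 against 47.3, 34.1 and 40.2 CPM. Its log2 fold change was -0.10 with a 95% interval of -0.49 to 0.28 (edgeR adjusted p = 0.917), so a change beyond 1.5-fold in either direction lay outside the interval. For Acsl3 the RF libraries gave -0.05 and the RE pair 0.55, and for Acsl4 -0.20 and 0.11.

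The transport proteins also overlapped. Slc27a1, the insulin-responsive form of fat and muscle also called FATP1, was at 297, 230 and 267 against 270, 204 and 326 CPM. Both the lowest and the highest library carried the knockout label, and the log2 fold change was 0.01 (95% interval -0.45 to 0.48; edgeR adjusted p = 0.991). Slc27a2, which activates very long chains in liver and kidney, was at 352, 276 and 235 against 156, 285 and 185 CPM. Knockout library 2 lay inside the heterozygous-labelled range and the other knockout-labelled libraries below it (log2 fold change -0.46, 95% interval -1.07 to 0.14; edgeR adjusted p = 0.601). Slc27a4, the transport protein best known from intestine and skin, was at 35.6, 43.2 and 25.0 against 45.1, 50.3 and 22.0 CPM, with the RE library the lowest of each group (log2 fold change 0.18, 95% interval -0.60 to 0.96; edgeR adjusted p = 0.932). Within prefixes, RF libraries and then the RE pair gave -0.15 and 0.29 for Slc27a1, -0.51 and -0.34 for Slc27a2, and 0.28 and -0.18 for Slc27a4. Of the summed length-scaled level of the 3 genes, Slc27a2 held 58.7% ± 3.38 and 49.7% ± 10.8, Slc27a1 35.2% ± 4.32 and 42.2% ± 11.9, and Slc27a4 6.08% ± 1.66 and 8.09% ± 3.15 (SD, n = 3 each; exact permutation p = 0.4 for each gene).

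Levels per length spanned the family widely. By CPM per kilobase of all exons, the order in the heterozygous-labelled libraries was Acsl1 (299 ± 35.2), Acsl5 (151 ± 53.4), Slc27a2 (76.6 ± 15.8), Acss1 (70.3 ± 22.7), Slc27a1 (45.4 ± 5.82), Acsl3 (21.1 ± 6.66), Acsl4 (8.06 ± 0.997), Slc27a4 (7.84 ± 2.07) and Acsl6 (0.250 ± 0.104; SD, n = 3 each). Slc27a2 could not be separated from Acss1, nor Acsl4 from Slc27a4, since their libraries overlapped. In the knockout-labelled libraries Acsl5 (235 ± 15.9) and Acsl1 (223 ± 16.5) overlapped at the top (SD, n = 3 each). Slc27a2 (55.5 ± 18.0) overlapped Slc27a1 (45.7 ± 10.5), which overlapped Acss1 (25.97 ± 14.8), and Acss1 overlapped Acsl3 (23.2 ± 1.38; SD, n = 3 each). Within each knockout-labelled library, however, Slc27a1 was above Acss1. Acsl3 did not overlap the next gene, Slc27a4, while Slc27a4 and Acsl4 overlapped. The tie at the top belongs to this length scale: per kilobase of the longest coding transcript, Acsl1 was at 806 ± 94.6 and Acsl5 at 173 ± 61.3 in the heterozygous-labelled libraries and at 600 ± 44.3 and 270 ± 18.2 in the knockout-labelled ones, with no overlap. Acsl1 led and Acsl6 was last in both groups on the coding scale. On that scale, in the heterozygous-labelled libraries, Acsl5 overlapped Slc27a2 (98.5), Slc27a2 overlapped Slc27a1 (94.7), and Slc27a1 overlapped Acss1 (80.2). Within each of these libraries, however, Acsl5 was above Slc27a2. Acss1 did not overlap the next gene, Acsl3.

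The promoters of the 4 genes whose groups did not overlap are shown because they let a reader compare the sequence before their starts. Each line gives the 250 bases before a RefSeq start (GRCm38.p6), 5′ to 3′ on the strand of the gene. The positions are chr8:46470787-46471036 (plus) for Acsl1, chr19:55253119-55253368 (plus) for Acsl5, chr11:54303574-54303823 (plus) for Acsl6 and chr2:150668241-150668490 (minus) for Acss1, and for Acsl1 and Acsl6 the most upstream of several starts was taken. Capitals mark matches, on either strand, to the motifs named in the next paragraph.

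Acsl1: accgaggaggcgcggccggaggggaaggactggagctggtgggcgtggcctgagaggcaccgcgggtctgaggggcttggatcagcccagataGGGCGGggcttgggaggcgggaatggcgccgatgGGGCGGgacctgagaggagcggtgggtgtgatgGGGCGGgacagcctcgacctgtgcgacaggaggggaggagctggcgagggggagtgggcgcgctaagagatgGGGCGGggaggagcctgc
Acsl5: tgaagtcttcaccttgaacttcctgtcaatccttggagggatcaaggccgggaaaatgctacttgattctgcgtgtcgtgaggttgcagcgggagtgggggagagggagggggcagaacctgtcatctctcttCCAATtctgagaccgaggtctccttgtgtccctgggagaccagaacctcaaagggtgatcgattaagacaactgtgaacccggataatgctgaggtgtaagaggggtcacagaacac
Acsl6: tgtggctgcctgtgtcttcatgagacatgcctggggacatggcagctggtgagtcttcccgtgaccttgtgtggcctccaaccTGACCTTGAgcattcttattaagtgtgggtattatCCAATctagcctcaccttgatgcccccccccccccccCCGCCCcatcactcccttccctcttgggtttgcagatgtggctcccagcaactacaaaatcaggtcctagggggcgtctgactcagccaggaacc
Acss1: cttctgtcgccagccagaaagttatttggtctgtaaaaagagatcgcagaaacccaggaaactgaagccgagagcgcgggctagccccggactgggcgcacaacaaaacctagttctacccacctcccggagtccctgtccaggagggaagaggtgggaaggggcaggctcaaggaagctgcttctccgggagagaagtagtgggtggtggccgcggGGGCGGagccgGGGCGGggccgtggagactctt

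The motifs searched on both strands were the PPAR element, a direct repeat of AGGTCA with 1 base between the copies, the estrogen-related receptor (ERR) element TCAAGGTCA, the SREBP element TCACNCCAC, the cAMP response element TGACGTCA, the MEF2 core, the GC box GGGCGG and the CCAAT box CCAAT. All 9 members matched at least 1 RefSeq window, 14 in all among 32851. The Acsl1 window shown held 4 GC boxes, the Acsl5 window 1 CCAAT box, 117 bases before the start, and the Acss1 window 2 GC boxes. GC boxes were found in 32.7% and CCAAT boxes in 33.8% of all windows. The Acsl6 window shown held a GC box 95 bases and a CCAAT box 132 bases before the start. It also held an ERR element 167 bases before the start, on the opposite strand, as did 0.387% of all windows. The windows of the other Acsl6 starts held no ERR element. A second Acsl1 start had an SREBP element 76 bases before it, as did 1.05% of windows. No member window held the PPAR element (0.0335% of all), the cAMP response element (1.55%) or the MEF2 core (0.508%). A match describes letters in this window and nothing about binding.

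Among the listed genes around the members in fatty acid metabolism, 3 passed with edgeR, where 0.586% of all genes did. These lists were drawn up with earlier results of these data known, and some genes stand in more than 1 list. The count therefore cannot be read against that share. Of the other acyl-CoA synthetases, 9 of 15 listed were tested and 0 passed, with a median log2 fold change of -0.48. The smallest p belonged to Acsf3, the mitochondrial malonyl-CoA synthetase, at 107, 97.4 and 80.7 against 55.3, 63.6 and 53.1 CPM (log2 fold change -0.73, edgeR adjusted p = 0.0789). Of 8 genes of the carnitine shuttle, which carries the acyl groups into mitochondria, Cpt2 alone passed and fell (-1.68, edgeR adjusted p = 0.0248), with a list median of -0.19. Of 11 thioesterases tested, which split acyl-CoA again, Acot2 alone passed and fell (-1.43, edgeR adjusted p = 0.0259), with a list median of 0. Of 13 genes that form or use acetyl-CoA, Acat1, the mitochondrial acetoacetyl-CoA thiolase, alone passed and fell (-1.80, edgeR adjusted p = 0.0152), with a list median of 0.07.

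The remaining lists held no gene that passed with edgeR. Of 12 tested genes for acyl-CoA and fatty acid binding and uptake the smallest p was that of Got2, the mitochondrial aspartate aminotransferase that has also been described as a fatty acid binding protein of the cell surface (-0.97, edgeR adjusted p = 0.165; list median 0.12). Of 14 tested genes of glycerolipid synthesis, the route that stores activated fatty acids, it was Agpat2 (0.55, edgeR adjusted p = 0.207; list median 0.24). Of 10 PPAR, ERR and PGC-1 regulators it was Esrrg (-0.52, edgeR adjusted p = 0.242; list median 0.02).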

How the data were processed

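Total RNA from frozen, pulverised brown fat was sequenced, per the labels' protocols. The authors deposited raw read counts per gene symbol, 1 column per library. Tools listed in the submitters' processing notes include STAR 2.7.2b, HTSeq, Bowtie2 2.3.4.3, edgeR, SAMtools 1.9 and Trim Galore, with mm10 as the build. Strand setting and annotation: not given in the sources used here. Closing rows that name no gene were left out of library sizes: column totals were 40280066 to 45792698 reads. Every 2 libraries differed beyond counting noise, with a chi-square over its degrees of freedom of 41.8 to 324.

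Groups came from the genotype labels. Replicate numbers follow accession order and pair nothing. edgeR 4.0.16 (R 4.3.3) used TMM scaling, filterByExpr (minimum count 10, minimum total 15) and the robust quasi-likelihood test on genotype alone, over 13300 genes, and was tested on simulated data. Shares and ratios were tested with two-sided exact permutation over the 6 libraries. RE-pair ratios add 0.5 CPM. Alternatives used DESeq2 1.42.0, limma 3.58.1 and others. Lengths and positions are from GENCODE M21 (22708 of 24062 symbols matched to exactly 1 gene), promoters from RefSeq.

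The members and gene lists were chosen with earlier results of these data known. Named genes were all members, Ucp1, and per list up to 3 called genes, or otherwise the gene with the smallest p. For the member with the smallest p, the 5 most similar profiles were named. Outside that rule, Acss2 was named after its values were seen, Fam195a as the targeted gene and Zdhhc6 for its exon overlap with Acsl5.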

Additional observations from a re-analysis of the deposited data

How the results depend on the processing

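Against 0 members called in the main analysis, 2 were called with DESeq2, 2 with the title prefix in the model, and 1 with limma-voom, 1 in the RF libraries alone and 1 at an adjusted p under 0.1. Leaving out single libraries gave 0 to 1. No member was called with RLE scaling, library size only, no filter, a mean CPM of at least 1, no robust estimation or muscle markers left out of the library sizes. Acsl1, Acsl5, Acsl6, Slc27a2 and Acss1 kept the sign of their log2 fold change in 16 of 16 alternatives, the others in 10 (Slc27a1) to 15 (Acsl4). Slc27a1 turned to -0.053 with library size only, -0.087 with limma-voom, -0.005 with the prefix as a covariate and -0.154 in the RF libraries, where Acsl3 turned to -0.047; the cause was not tested. Leaving out single libraries, the log2 fold change ranged from -0.166 to 0.174 for Slc27a1, -0.008 to 0.427 for Acsl3, -0.041 to 0.456 for Slc27a4 and -0.228 to 0.007 for Acsl4. All genes called ranged from 0 to 755 over the alternatives, against 78: 755 with DESeq2, 311 with the prefix as a covariate, 194 with limma-voom, 132 in RF libraries, and without single libraries 400 (heterozygous 1), 111 (knockout 3), 8 (heterozygous 3) and 0 for each of the other 3. The Acsl1 share stayed lower by 13.6 to 21.3 percentage points. No paired analysis was possible because the labels give no shared replicate numbers. Depth limits Acsl6, with 10 to 13 reads per knockout-labelled library.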
